A study of Homo sapiens with 4 samples.

Results

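Laminin chains are described here through 9 genes, LAMA1, LAMA2, LAMA3, LAMA4, LAMA5, LAMB1, LAMB2, LAMB3 and LAMC1, chosen by name among the 60721 genes of the count table. All 9 had a row in the count table, passed the filter on low counts, and had a row in the deposited log2 CPM table (0 were missing). Their RNA was sequenced from cultures of HS578T, an established cell line of human breast carcinoma origin. GFP and 1.6 µM of RNA were transfected into the cells together, the RNA being a non-targeting control (SCR) or an siRNA against TLN1 (siTLN1), and the cells were collected 48 h later. TLN1 encodes talin-1, which couples integrins to actin filaments. There were 2 biological replicates, 1 library each, per group, and GFP was present in both groups. The study used 1 cell line, and the sequence of the siRNA is not given in the sources used here.

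A laminin is a cross-shaped protein of the basement membrane, built in the secretory pathway from an alpha, a beta and a gamma chain that wind into a coiled coil. The alpha chain carries the globular domains that cells bind through integrins and dystroglycan, and the short arms of the chains let laminins link into a sheet. In breast epithelium, laminins of the basement membrane are known to guide polarity and survival, and talin acts on the cell side of the integrins that bind them.

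The total count per library was 31854322 and 34794346 in SCR and 36987264 and 46353297 in siTLN1. The headers of the count columns number the libraries with the same 2 numbers in each group. The library with the lower number is called library a and the other library b. TLN1 stood at 868 and 874 CPM (counts scaled to library size by TMM) in SCR libraries a and b and at 51.9 and 44.8 CPM in siTLN1 libraries a and b, a log2 fold change of −4.17 (standard error 0.11), so the target transcript was low in both libraries labelled siTLN1. Although the labels call the cells epithelial, the epithelial markers EPCAM and KRT5 were at 0.144 CPM or less in every library, GRHL2 and OVOL1 had 0 counts, and CDH1 reached 0.851 CPM at most, whereas KRT14 and KRT18 were between 66.2 and 131 CPM. The mesenchymal marker VIM was between 3811 and 3968 CPM, and of 12 mesenchymal markers 0 were higher and 3 (CDH2, CAV1 and SPARC) were lower in siTLN1, or 25%, beside 6.07% of all 16137 genes tested. The summed level of the 13 epithelial markers ranged from 232 to 280 CPM in SCR and from 199 to 211 CPM in siTLN1, with KRT14 lower in siTLN1 (log2 fold change −0.81, adjusted p 9.77e-05). Without KRT14 the epithelial sums overlapped, at 123 and 153 CPM in SCR and 132 and 143 CPM in siTLN1, and CDH1 and KRT18 had log2 fold changes of 0.83 (adjusted p 0.192) and 0.024 (0.939). The 8 endothelial markers together gave 6.14 to 6.80 CPM in SCR and 5.82 to 6.53 CPM in siTLN1, and the 7 immune markers 11.2 to 11.3 CPM and 9.61 to 10.5 CPM. The largest part of each sum came from a single gene, PECAM1 at 2.86 to 4.47 CPM and CSF1R at 8.19 to 9.48 CPM, while CD3E and LYZ had 0 counts. In these bulk libraries, fewer cells of a type and less RNA per cell cannot be told apart.

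The chains were present at very unequal levels. Expressed per length, as CPM per kilobase of exon, the gamma chain LAMC1 was the highest of the 9, and the beta chains LAMB1 and LAMB2 followed. In SCR, LAMC1 stood at 176 ± 12.8 CPM per kilobase (SD, n = 2), LAMB1 at 88.8 ± 2.83 and LAMB2 at 50.2 ± 0.045. LAMA5 and LAMB3 formed a middle tier at 13.8 ± 1.85 and 11.6 ± 0.441 CPM per kilobase. LAMA2 (2.28 ± 0.354), LAMA4 (1.95 ± 0.494), LAMA1 (0.559 ± 0.0628) and LAMA3 (0.140 ± 0.0177) were lower still on the same scale. Neighbours in this order did not overlap between the SCR libraries, except LAMA2 and LAMA4. In siTLN1 the order differed at 1 place, with LAMB3 at 13.2 ± 1.39 CPM per kilobase above LAMA5 at 10.8 ± 0.150, and no neighbours overlapped. LAMA2 and LAMA4 were apart there, at 3.76 ± 0.651 and 1.58 ± 0.148 CPM per kilobase. Among all genes tested, LAMC1 was above 99.7% and LAMB1 above 99.1% by mean CPM in SCR, and LAMA3 above 26.6%. Coverage along these long transcripts was not examined, so the levels assume that reads fall evenly over the exons. The length counts all annotated exons of a gene, and it exceeds that of a single transcript unequally. It was 15857 bases for LAMA1, 11983 for LAMA4 and 8446 for LAMC1. Their GENCODE 29 transcripts with the longest coding sequence have 9657, 6547 and 7889 bases. Order, shares and ratios between chains depend on this choice, and levels by transcript length were not computed.

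**Figure D1:**
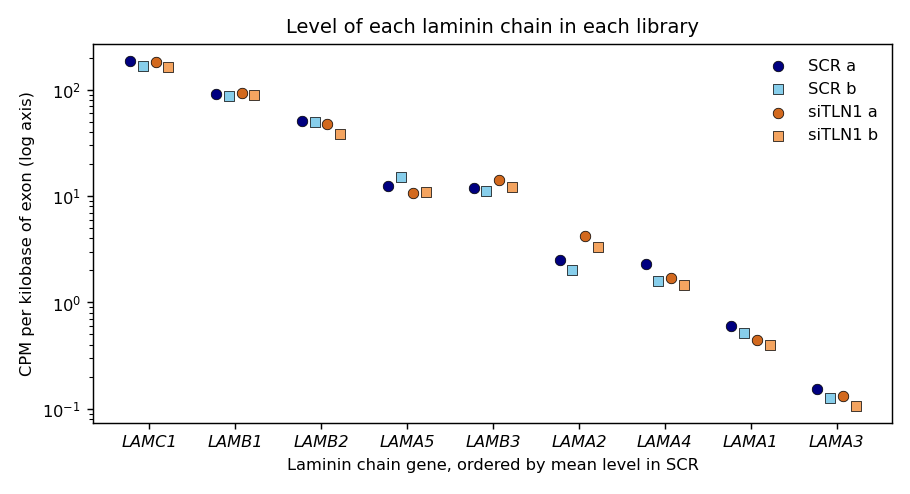
Level of the 9 laminin chain genes in each of the 4 libraries, as CPM per kilobase of exon on a log axis, ordered by the mean of the SCR libraries. LAMC1 lies near 176 and LAMA3 near 0.140 CPM per kilobase in SCR, and LAMA2 is the chain whose siTLN1 points both lie above its SCR points by the widest ratio.

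Between the groups, LAMA2 rose in siTLN1 and the other 8 chains did not pass the test. Of the 9 chains, 1 was higher and 0 were lower at an adjusted p below 0.05 (edgeR, quasi-likelihood test, Benjamini-Hochberg over all genes tested). Over all 16137 genes tested, 6.07% passed, 2.30% as higher and 3.77% as lower. This test took no account of replicate numbers. With the labels' replicate numbers as a block, limma-trend on the deposited log2 CPM passed 6 chains, and 3650 of all genes tested. LAMA2 and LAMB3 were higher there, and LAMA1, LAMA4, LAMA5 and LAMB2 lower. Without the block, limma-trend passed 1 chain, LAMA2, and 951 of all genes tested. No label states what a replicate number marks, and 2 pairs cannot settle which fit applies. The libraries of the 2 groups did not overlap for 5 chains, LAMA2 and LAMB3 being higher and LAMA1, LAMA5 and LAMB2 lower, while 48.4% of all genes tested showed no overlap (23.9% higher and 24.6% lower), so this count is close to the background. The median log2 fold change of the chains was −0.24, with 3 positive and 6 negative, beside 0.0033 for all genes tested. When 1 library was left out, that median moved to −0.018 (SCR library a left out), −0.21 (SCR b), −0.34 (siTLN1 a) and −0.084 (siTLN1 b).

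**Figure D2:**
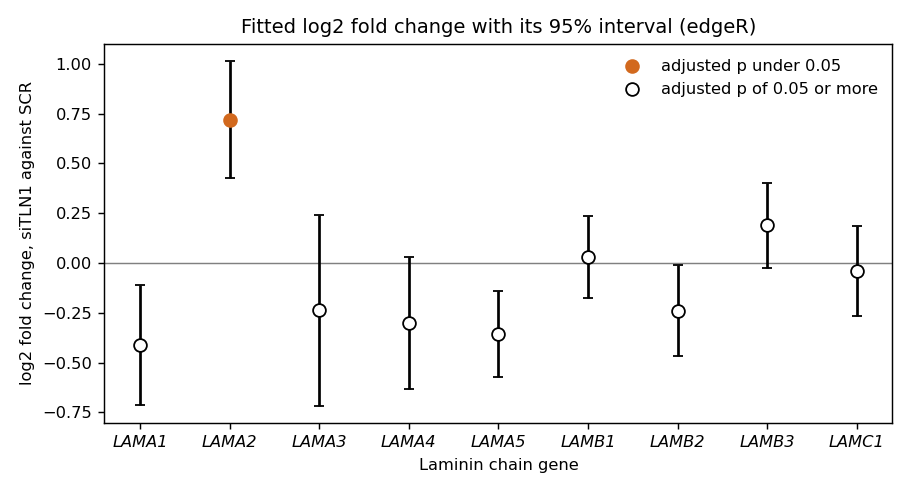
Fitted log2 fold change of each laminin chain, siTLN1 against SCR, with bars for the 95% interval of each gene's own fit, not adjusted for the number of genes. LAMA2 at 0.72 is the filled point, the only chain with an adjusted p under 0.05, and the intervals of LAMB1 (−0.17 to 0.24) and LAMC1 (−0.27 to 0.19) lie around 0.

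The alpha chains decide which receptors a laminin can bind. LAMA2 encodes the alpha-2 chain, known from the basement membrane of muscle and peripheral nerve, where loss of it causes a congenital muscular dystrophy. LAMA2 (ENSG00000196569.12; GRCh38, chromosome 6, 128883141 to 129516569, plus strand) had 834 and 733 raw counts in SCR libraries a and b and 1591 and 1606 in siTLN1 libraries a and b. These counts corresponded to 26.2 and 21.0 CPM in SCR and 43.7 and 34.2 CPM in siTLN1. Both siTLN1 libraries were above both SCR libraries, and the mean rose 1.65-fold, from 23.6 ± 3.67 CPM to 38.9 ± 6.74 CPM (SD, n = 2 in each group). The log2 fold change was 0.72 (standard error 0.14, 95% interval 0.42 to 1.01, adjusted p 0.00756), and 97.5% of the genes tested had a lower log2 fold change. In the deposited log2 CPM table, LAMA2 read 4.72 and 4.40 in SCR replicates 1 and 2 and 5.45 and 5.10 in siTLN1 replicates 1 and 2. The call was lost without siTLN1 library a, where the log2 fold change was 0.54 with an adjusted p of 0.0732.

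LAMA5 encodes the alpha-5 chain, the widespread alpha chain of epithelial and endothelial basement membranes, and was the most abundant alpha chain per length in all 4 libraries. LAMA5 (ENSG00000130702.15; chromosome 20, 62307955 to 62367312, minus strand) stood at 178 and 216 CPM in SCR libraries a and b and at 153 and 156 CPM in siTLN1 libraries a and b. Both siTLN1 libraries were below both SCR libraries, and the gap between the SCR libraries was wider than the gap from the lower of them to siTLN1. The log2 fold change was −0.35 (standard error 0.10), and the adjusted p of 0.0508 was just short of the threshold. It passed with DESeq2 (adjusted p 0.0370), with total counts only (0.0229), with the gene-length trend removed (0.0471), at a mean of at least 10 counts (0.0462) and with edgeR's legacy method (0.0485). With the replicate block, where p-values rest mostly on spread pooled over genes, limma-trend gave LAMA5 an adjusted p of 5.63e-06. Without the block it gave LAMA5 0.0592. Without a filter on low counts its adjusted p was 0.116, and leaving out a library gave from 0.00494 (without SCR library a) to 0.451 (without SCR library b, log2 fold change −0.21).

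LAMA1 encodes the alpha-1 chain, best known from the early embryo. LAMA1 (ENSG00000101680.15; chromosome 18, 6941742 to 7117797, minus strand) was low, with 304 and 284 raw counts in SCR and 255 and 298 in siTLN1, or 9.56 and 8.15 CPM against 7.01 and 6.34 CPM. The siTLN1 libraries were both below the SCR libraries, and the log2 fold change was −0.41 (standard error 0.14, adjusted p 0.104). With the gene-length trend removed, LAMA1 passed at an adjusted p of 0.0454, and with the replicate block in limma-trend at 0.00522 (0.117 without the block). LAMA4 encodes the alpha-4 chain of vascular and mesenchymal laminins. LAMA4 (ENSG00000112769.20; chromosome 6, 112107931 to 112254939, minus strand) had 27.5 and 19.1 CPM in SCR libraries a and b and 20.2 and 17.7 CPM in siTLN1. The groups overlapped, since SCR library b stood below siTLN1 library a, while SCR library a stood above the other 3 libraries. The log2 fold change of LAMA4 was −0.30 (standard error 0.15, adjusted p 0.305), and it was −0.018 without SCR library a and −0.54 (adjusted p 0.00330) without SCR library b. LAMA3 encodes the alpha-3 chain of the laminin that anchors epithelia through hemidesmosomes. LAMA3 (ENSG00000053747.16; chromosome 18, 23689443 to 23956222, plus strand) was the lowest of the 9, with 65 to 74 raw counts per library and 2.23 and 1.87 CPM in SCR against 1.92 and 1.57 CPM in siTLN1. Its log2 fold change of −0.24 had a 95% interval of −0.72 to 0.24, which spans 0, and ran from −0.37 (without siTLN1 library a) to −0.084 (without siTLN1 library b) when 1 library was left out.

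The beta and gamma chains are the shared frame of most laminins. LAMB1 (ENSG00000091136.14; chromosome 7, 107923799 to 108003187, minus strand), which encodes the beta-1 chain, had 733 and 701 CPM in SCR libraries a and b and 753 and 713 CPM in siTLN1. LAMC1 (ENSG00000135862.6; chromosome 1, 183023420 to 183145592, plus strand), which encodes the gamma-1 chain found in most laminins, had 1566 and 1413 CPM in SCR and 1532 and 1368 CPM in siTLN1. For both genes the groups overlapped and library a was above library b in each group. The log2 fold change of LAMB1 was 0.031 (standard error 0.097, adjusted p 0.910), and its interval corresponds to a fold of 0.886 to 1.18. For LAMC1 the log2 fold change was −0.039 (standard error 0.11, adjusted p 0.895), and the fold interval was 0.831 to 1.14. The sign turned for LAMB1 without siTLN1 library a (−0.0067), and for LAMC1 without SCR library a (0.037) or siTLN1 library b (0.044).

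LAMB2 encodes the beta-2 chain, which replaces beta-1 at neuromuscular junctions and in the kidney glomerulus. LAMB2 (ENSG00000172037.14; chromosome 3, 49121114 to 49133118, minus strand) had 345 CPM in each SCR library and 324 and 260 CPM in siTLN1 libraries a and b. The siTLN1 libraries were both lower, but the gap between them was wider than the gap from SCR to siTLN1 library a. Its log2 fold change was −0.24 (standard error 0.11, adjusted p 0.226), and it was −0.40 without siTLN1 library a and −0.085 without siTLN1 library b. LAMB3 encodes the beta-3 chain, the partner of alpha-3 in epithelial anchoring laminin. LAMB3 (ENSG00000196878.15; chromosome 1, 209614870 to 209652425, minus strand) had 55.3 and 52.4 CPM in SCR and 66.0 and 56.8 CPM in siTLN1, with no overlap. The log2 fold change of LAMB3 was 0.19 (standard error 0.10, adjusted p 0.322), and it was 0.081 without siTLN1 library a and 0.30 without siTLN1 library b.

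Put as shares of a class, LAMA2 took a larger part of the alpha chain transcripts in siTLN1. Of the summed level per length of the 5 alpha chains, LAMA2 made up 14.0% and 10.5% in SCR libraries a and b and 24.6% and 20.4% in siTLN1 libraries a and b. LAMA5 made up 69.1% and 78.0% in SCR and 62.3% and 67.4% in siTLN1. The level of LAMA5 was 4.93 and 7.44 times that of LAMA2 per length in SCR libraries a and b, and 2.53 and 3.30 times in siTLN1. LAMA5 thus remained the leading alpha chain in every library. Within the 3 beta chains, LAMB1 made up 59.4% and 58.5% in SCR and 60.3% and 63.8% in siTLN1, and LAMB2 32.9% and 33.9% against 30.5% and 27.4%. The alpha sum was 18.7 ± 0.924 CPM per kilobase in SCR and 16.7 ± 0.694 in siTLN1 (SD, n = 2), the beta sum 151 ± 3.31 and 147 ± 11.5, and LAMC1 176 ± 12.8 and 172 ± 13.7. Per length of all annotated exons, alpha chains were therefore the scarcest class among these 9 genes. On that scale LAMC1 stood at 8.64 to 10.6 times the alpha sum in the 4 libraries. These shares are descriptions without a test, and with 2 libraries in each group no exact permutation test of 1 value can go below p = 0.333.

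**Figure D3:**
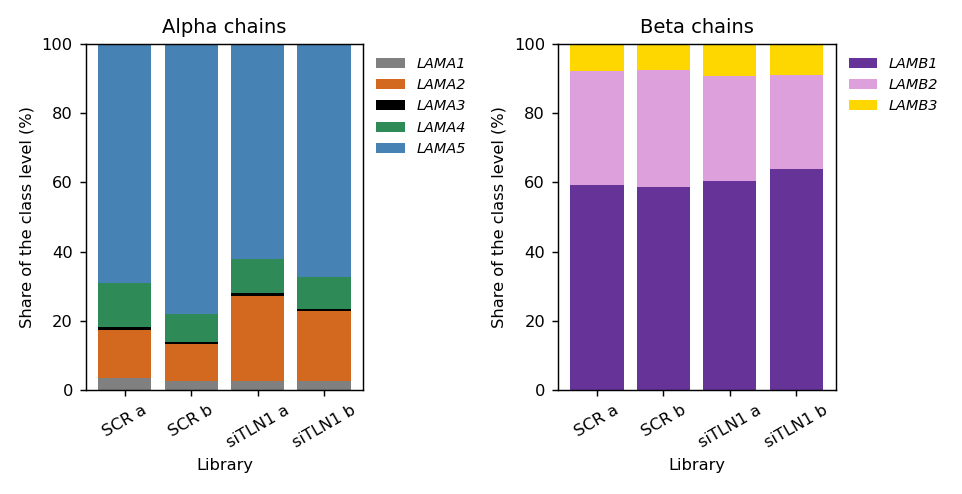
Share of each chain in the summed level per length of the 5 alpha chains (left) and the 3 beta chains (right), in percent, for each of the 4 libraries. The LAMA2 share of the alpha chains is 10.5% to 14.0% in the SCR libraries and 20.4% to 24.6% in the siTLN1 libraries, and LAMA5 and LAMB1 hold the largest part of their class in all 4.

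The libraries of a group differed in a like way for most chains. Library a was above library b in both groups for 8 of the 9 chains, and below it in both groups for LAMA5. Over all genes tested, 31.4% had library a above library b in both groups and 32.1% had the reverse.

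Counting limits touch some chains. The counting used no strand option, and by default a read that falls on exons of 2 genes is not counted. Genes on the opposite strand shared 11.1% of the exon bases of LAMA1, 7.63% of those of LAMA2, 3.61% of LAMB1, 2.53% of LAMA5 and 1.72% of LAMA4. The opposite-strand genes at LAMA2 were at 0.298 CPM or less in every library. Those at LAMA1 had 0 counts. Reads on shared bases count for neither gene, so these low values do not show how many reads the chains lost. The shared bases stay in the length used for the levels. The neighbours that overlap LAMA5 and LAMB1 include expressed genes, ADRM1 at 108 to 129 CPM and DLD at 132 to 141 CPM, which share 1.71% and 0.867% of the exon bases. LAMA3, LAMB2, LAMB3 and LAMC1 shared no base with an opposite-strand gene.

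The chains also differ in whether their transcripts hold the 7-base word GACAACA, which an earlier search of these data had tied to lower fold changes and which TLN1 holds once in its coding sequence. In GENCODE 29, using the transcript with the longest coding sequence of each gene, the word was found in the coding sequence of 7 of the 9 chains and in the 3′ UTR of 1, LAMA4. Not all coding transcripts held the word: 1 of 2 for LAMA1, 3 of 4 for LAMA2, 6 of 11 for LAMA3 and 4 of 15 for LAMA4. For LAMA5 it was 1 of 3, for LAMB1 3 of 5 and for LAMC1 1 of 2. LAMB2 and LAMB3 held it in none of their coding transcripts (3 and 5). Over all protein-coding genes tested, TLN1 left out, 15.9% held it in the coding sequence and 7.36% in the 3′ UTR. Among 1310 tested genes with a coding sequence of 3519 to 11088 bases, the range of the chains, 38.5% held it there. In a 3′ UTR of 112 to 2802 bases, also the range of the chains, 4.86% of 9433 genes held it. Within these ranges the genes were not matched to the chains by length, so neither share is the share expected for the chains. The sites of TLN1, of LAMA5, the chain nearest the threshold, and of LAMA4 in its 3′ UTR are shown 5′ to 3′ on the transcript strand, as the transcript sequence is given, with the word in capitals.
TLN1, coding sequence, chr9:35706026-35706054, minus strand, exon 41 of 57: gtagaggacctGACAACAaccctcaacga
LAMA5, coding sequence, chr20:62333153-62333181, minus strand, exon 26 of 80: tgtgtcgccagGACAACAgcctgccccgg
LAMA4, 3′ UTR, chr6:112109220-112109248, minus strand, exon 39 of 39: tgtctgcaatgGACAACAattgaaggagt

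Across 12886 protein-coding genes tested, TLN1 left out, the median log2 fold change was −0.098 for the 949 genes with the word in the 3′ UTR and 0.013 for the 11937 without. For the 1871 genes with it in the coding sequence and not in the 3′ UTR the median was −0.024. The word was taken from an earlier search of these same data, so lower medians of the genes that hold it are not an independent result. The 7 chains that hold the word had log2 fold changes from −0.41 to 0.72, 2 of them above 0, and LAMB2 and LAMB3, which lack it, had −0.24 and 0.19. A match is a description of the letters in these transcripts, and its part in the results was not tested.

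Among genes that build the basement membrane around laminin, 3 passed the test, in different directions. Of 27 partners listed, 16 were tested, 1 was higher, 2 were lower and 13 did not pass, so 18.8% passed beside 6.07% of all genes tested. Their median log2 fold change was −0.058, and it ran from −0.20 (without siTLN1 library a) to 0.044 (without siTLN1 library b) when 1 library was left out. HMCN1, which encodes the large matrix protein hemicentin-1, rose from 216 and 169 CPM in SCR to 354 and 252 CPM in siTLN1 (log2 fold change 0.65, adjusted p 0.0396). SPARC, a collagen-binding matricellular protein, fell from 5119 and 4917 CPM to 3705 and 3500 CPM (−0.48, adjusted p 0.0161). COL17A1, the transmembrane collagen of hemidesmosomes, fell from 5.54 and 4.85 CPM to 3.19 and 2.94 CPM (−0.76, adjusted p 0.0118). Transcripts for proteins that bridge laminin to the collagen IV sheet, and for collagen IV itself, were measured too. NID2 (nidogen-2) had a log2 fold change of 0.18 (adjusted p 0.321), HSPG2 (perlecan) 0.26 (0.297), COL4A1 0.11 (0.771) and COL4A2 −0.092 (0.719), and NID1 (nidogen-1) was at 0.126 CPM or less. The calls were lost for HMCN1 with DESeq2 (0.226), without a filter (0.0531) and without siTLN1 library a (0.203, log2 fold change 0.39), and for SPARC with limma-trend (0.0571) and without any of the 4 libraries (0.0603 to 0.142). That of COL17A1 was lost without siTLN1 library a (0.0611) or b (0.0753).

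Among the receptors and adhesion partners of laminin, the most abundant integrin subunit, ITGB1, did not pass the test (1552 and 1346 CPM in SCR, 1706 and 1503 CPM in siTLN1, log2 fold change 0.15, adjusted p 0.514). Of 18 genes listed, 17 were tested, 1 was higher, 2 were lower and 14 did not pass, so 17.6% passed beside 6.07% of all genes tested. Their median log2 fold change was −0.053, and −0.12 without siTLN1 library a. BCAM, the Lutheran glycoprotein that binds the laminin alpha-5 chain, rose from 38.0 and 47.9 CPM to 57.3 and 55.6 CPM (0.39, adjusted p 0.0474), and the log2 fold change was 0.24 without SCR library a. ITGA2, the alpha subunit of a collagen and laminin receptor, fell from 129 and 114 CPM to 98.0 and 93.8 CPM (−0.34, adjusted p 0.0473). SGCE, epsilon-sarcoglycan of the dystrophin complex, fell from 103 and 106 CPM to 82.5 and 82.2 CPM (−0.35, adjusted p 0.0317). The classical laminin-binding subunits ITGA3 and ITGA6 had log2 fold changes of −0.17 (adjusted p 0.349) and 0.030 (0.918), DAG1 (dystroglycan) had −0.17 (0.385), and ITGB4, the hemidesmosome subunit, was at 0.247 CPM or less. All 3 calls were lost without a filter (0.0746 to 0.112), without SCR library a (0.0510 to 0.309), and without siTLN1 library a (0.216 to 0.256) or b (0.0806 to 0.229), and ITGA2 with limma-trend (0.0507) and SGCE without SCR library b (0.121).

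Dystroglycan binds laminin through a sugar chain made by a dedicated set of enzymes. Of 18 genes listed for that pathway, 17 were tested and 0 passed, with a median log2 fold change of 0.017 that turned negative without SCR library a (−0.0042) or without siTLN1 library a or b (both −0.019). At an unadjusted p under 0.05, edgeR gave 3 of the 17, or 17.6%, beside 19.8% of all genes tested, and DESeq2 passed 0 at its adjusted p. The most abundant per length were DPM1 (40.9 and 42.7 CPM in SCR, 41.7 and 45.0 CPM in siTLN1) and POMGNT1 (159 and 155 CPM against 145 and 145 CPM), with log2 fold changes of 0.053 and −0.11. The value of DPM1 ran from 0.00030 to 0.11 when 1 library was left out. Of 7 proteases known to cleave laminins or to act in their processing, 4 were tested and 0 passed in edgeR. Of these 4, 2 had an unadjusted p under 0.05 in edgeR, beside 19.8% of all genes tested. MMP2 had 831 and 970 CPM in SCR and 1127 and 1156 CPM in siTLN1 (0.34, adjusted p 0.0668), and MMP14 had 864 and 931 CPM against 1099 and 1066 CPM (0.27, adjusted p 0.131). The groups did not overlap for either gene, as for 48.4% of all genes tested (23.9% higher in siTLN1). MMP2 passed with DESeq2 (0.0230), with total counts only (0.0460) and with the gene-length trend removed (0.0300).

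**Figure D4:**
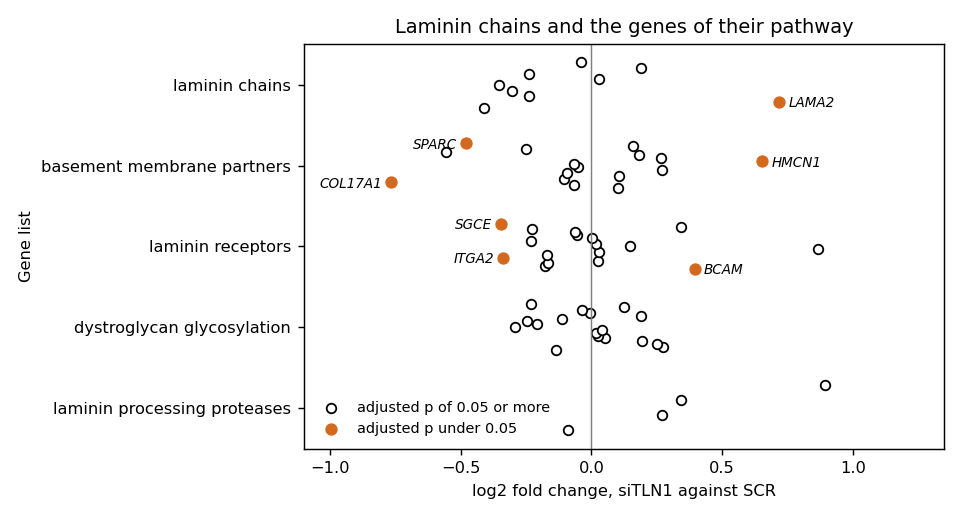
Log2 fold change, siTLN1 against SCR, of the tested genes of the laminin chains and of 4 lists from their pathway, 1 point per gene and filled where the adjusted p was under 0.05. LAMA2 (0.72) and HMCN1 (0.65) are the filled points farthest to the right and COL17A1 (−0.76) the one farthest to the left, and the dystroglycan and protease lists have no filled point.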

How the data were processed

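Per the labels' protocols, 4 libraries (2 SCR, 2 siTLN1) were made from polyadenylated RNA with a stranded mRNA kit. The authors deposited raw counts per gene from featureCounts 2.0.0 in paired mode, without a strand or multi-mapping option, on GENCODE 33 of GRCh38, per the file headers; exon lengths are a column of that table, in another unit. STAR 2.7.9a and edgeR 3.34.1 are named in the submitters' processing notes. The authors also deposited log2 CPM values for 16137 genes, the same genes that filterByExpr kept. Count columns name their group but no label's replicate, so they were mapped to groups only, and letters a and b follow a number that recurs in both groups. For the laminin chains, the deposited log2 CPM of replicate 1 matched library a and that of replicate 2 library b in each group. Symbols came from the Ensembl IDs.

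Genes passing filterByExpr (minimum count 10, minimum total 15; 16137 of 60721) were compared with edgeR 4.0.16 in R 4.3.3 (TMM, estimateDisp, robust glmQLFit by the current method, glmQLFTest), with Benjamini-Hochberg adjustment over all of them and a threshold of 0.05. The share of each library's counts in these genes was 99.9%. CPM values are TMM-scaled. SDs are over 2 libraries, and replicates differed by more than counting noise (chi-square per degree of freedom 13.3 in SCR and 18.3 in siTLN1). The p-values use the spread between these libraries as moderated over all genes by the edgeR fit, not each gene's own spread alone. The limma-trend p-values are moderated too, and with the replicate block they rest mostly on spread pooled over genes. Alternatives were RLE factors, total counts, other filters, DESeq2 1.42.0, limma-trend (limma 3.58.1), a gene-length trend (span 0.3), a replicate block, each library left out in turn and, added after seeing the data, edgeR's legacy method. The test was also run on simulated counts, drawn as independent libraries with the same dispersion for every gene. That run did not cover differences shared by libraries of the same number.

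The chains and lists were chosen with earlier results of these data known. Named beside the 9 chains are the list genes with an adjusted p under 0.05 and, for a list with none, the 2 highest per length. Others in the text were named after their values were seen, for their role at the laminin sheet. One list of the plan and some other items are not reported here. Words were searched in GENCODE 29 transcripts, a release that differs from that of the counts.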

Additional observations from a re-analysis of the deposited data

How the results depend on the processing

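With all 4 libraries, the 10 alternatives gave 90 values for the laminin chains, of which 74 stayed on their side of the threshold, 16 passed it anew and 0 reversed. LAMA2 passed in all 10 (log2 fold change 0.70 to 0.73). The count of chains passing was 1, and it was 2 with DESeq2, with total counts only, with the legacy method and at a mean of at least 10 counts (LAMA2 and LAMA5 in each), and 3 with the gene-length trend removed (LAMA1 as well). The receptors that passed numbered 3, and 0 without a filter on low counts. The 980 genes passing became 663 without that filter, 847 with DESeq2, 1253 with total counts only and 1406 with the gene-length trend removed. The cause was not tested.

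Whether the labels' replicate numbers pair the samples was checked on the deposited log2 CPM values. The difference between replicates 1 and 2 correlated between the groups at 0.19 across genes, and at 0.54 among genes of at least 5 CPM. No label states what a number marks, and 2 pairs cannot settle it. With the replicate block, limma-trend passed 3650 genes, 6 chains (LAMA2 and LAMB3 higher; LAMA1, LAMA4, LAMA5 and LAMB2 lower), 6 partners, 10 receptors and 4 dystroglycan genes, and also MMP2 (adjusted p 0.000118) and MMP14 (0.00287), which the test without a block did not pass. With the block and the gene-length trend removed, the counts were 3643, 6, 6, 10 and 5.

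Fits that left out 1 library assume that the lone library of a group varies like the other group. They passed 324 (without siTLN1 library a) to 1100 genes, 0 (without siTLN1 library a) to 2 chains, 0 to 2 partners, 0 to 3 receptors and 0 to 1 dystroglycan genes. Values ran from −0.12 to 0.044 for LAMC1 and from −0.0067 to 0.074 for LAMB1. The summed level of the chains in SCR was 346 CPM per kilobase and moved by less than its SD with total counts only. Levels by protein length were not run, because no protein lengths were used here. The lowest chain, LAMA3, had 65 to 74 counts per library and the widest 95% interval of the 9.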
